A study of Mus musculus with 14 samples.

Results

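Splenic CD8+ conventional dendritic cells (cDC) were compared with bone marrow pre-cDC, the committed precursor population of cDC, on single-colour Agilent expression arrays. The comparison used 4 of the 14 arrays of the series, 2 for each population, chosen by their labels. All cells came from wild-type C57BL/6 mice. The pre-cDC were bone marrow cells without lineage markers, positive for CD11c, CD135 (FLT3) and CD172a (SIRPA) and negative for MHC class II. The CD8+ cDC were spleen cells positive for CD11c, MHC class II and CD8 and negative for CD4. Both were enriched on magnetic columns and then sorted by flow cytometry. The remaining arrays hold granulocyte-monocyte progenitors (GMP) of wild-type and Irf8-deficient mice, common dendritic cell progenitors (CDP), neutrophils and CD4+ cDC. Ages were not given in the sources used here. Nothing in the labels says whether the 2 arrays of a group came from separate animals. The p-values therefore measure a spread between arrays of the same group, which may be technical. This spread was pooled over the 12 arrays of the fit, which include the GMP, CDP and neutrophil arrays but not the CD4+ cDC arrays.

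cDC arise in the marrow from CDP through a pre-cDC stage, travel through the blood and complete their differentiation in lymphoid and other tissues. In the mouse spleen they form a CD8+ lineage, also called cDC1, which depends on IRF8 and BATF3 and is known for taking up dead cells and presenting their antigens on MHC class I, and a CD8-negative lineage, cDC2, which depends on factors such as IRF4 and KLF4. A positive gate for SIRPA, a cDC2 surface protein, defined the precursors here, so they are the SIRPA-positive fraction of the precursor pool.

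Levels are log2 signals relative to the 75th percentile of the array, so 0 is a probe at that percentile. Differences are CD8+ cDC minus pre-cDC on the log2 scale, with the standard error of limma's fit and its Benjamini-Hochberg adjusted p over all 12607 genes tested. Every mean rests on 2 arrays. Genes with an adjusted p under 0.05 are termed called. Where a probe was not well above background on either array of a group, the fold is given as a lower bound ("at least"), computed from the bright group's mean and, on each dim array, the lowest signal well above background or the probe's own signal where that was higher. Counts of genes that differed at least 2-fold use the fitted difference.

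The raw 75th percentile was 164 and 147 intensity units on the pre-cDC arrays and 211 and 281 on the CD8+ cDC arrays. Of all probes, 42.0% and 40.0% were well above background in pre-cDC and 48.9% and 50.5% in CD8+ cDC. The replicates correlated at r = 0.992 (pre-cDC) and 0.997 (CD8+ cDC) across genes, which are not independent replicates. The pre-cDC arrays lay on 1 slide and the CD8+ cDC arrays on another, which also held the neutrophil arrays, and each population came from 1 tissue, so slide, tissue and cell type cannot be told apart. The limma fit called 9443 genes, 74.9% of those tested, with 5094 higher in CD8+ cDC (40.4%) and 4349 lower (34.5%). Because most genes were called, counts below are mainly of genes called with at least a 2-fold difference: 4146 genes (32.9%), 2149 higher (17%) and 1997 lower (15.8%). These shares are the background for every count of 2-fold differences below. The groups did not overlap at 87.1% of genes. The median difference over all genes was 0.08, and scaling each array to its median added the same amount to every gene, for a median of 0.34 and 66.9% of calls higher in place of 53.9%. Without the filter on dim probes 37.2% of calls were higher.

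The genes of the sorting gates, whose differences are fixed by the sort, followed the labels in most cases. Cd8a stood at 4.56 and 4.82 in CD8+ cDC and was not well above background in pre-cDC, at -2.95 and -2.86. The MHC class II chain H2-Aa read 8.56 and 8.59 in CD8+ cDC against 3.10 and 3.15 in pre-cDC, so its transcript was above background in precursors sorted as negative for the protein. Sirpa was the reverse, with a difference of -3.10. Itgax, the gene of CD11c, differed by 1.06. Flt3 differed by 0.45 ± 0.17 (adjusted p = 0.0395), and this call was lost in 9 of 14 alternative settings. Cd4 read 3.19 and 2.91 in cells sorted as CD4-negative and 2.86 and 2.88 in pre-cDC, with no call (adjusted p = 0.161), though it was called without the second CD8+ cDC array (adjusted p = 0.0266).

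The cDC1 genes were, as a list, far higher in the CD8+ cDC. Of 28 listed genes, 26 were tested, 23 were called at least 2-fold higher and none at least 2-fold lower (background 17% and 15.8%). Their median difference was 5.04, or 4.41 with dim genes at their bound, against 0.08 over all genes. Over the genes well above background on all 4 arrays the median was 3.13. Itgae and Ifi205 were not matched to a probe and were not analysed here. The 2 promoters below belong to Xcr1 and Clec9a, defining cDC1 surface receptors. The AP-1-IRF composite element (AICE) is the kind of site that BATF factors are known to bind with IRF4 or IRF8. Both promoters are shown because they also match a short pattern for part of it. They are RefSeq sequences on GRCm38.p6, read 5′ to 3′ on the gene's strand and ending 1 base before the start, with the match to the motif (TTTC, any 4 bases, then TGA) or its reverse complement in capitals.
Xcr1, chr9:123862030-123862279, minus strand: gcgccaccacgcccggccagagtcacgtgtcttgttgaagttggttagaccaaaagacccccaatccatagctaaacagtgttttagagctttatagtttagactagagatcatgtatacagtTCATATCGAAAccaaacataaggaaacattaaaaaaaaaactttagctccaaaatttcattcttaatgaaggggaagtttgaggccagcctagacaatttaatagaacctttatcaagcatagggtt
Clec9a, chr6:129408612-129408861, plus strand: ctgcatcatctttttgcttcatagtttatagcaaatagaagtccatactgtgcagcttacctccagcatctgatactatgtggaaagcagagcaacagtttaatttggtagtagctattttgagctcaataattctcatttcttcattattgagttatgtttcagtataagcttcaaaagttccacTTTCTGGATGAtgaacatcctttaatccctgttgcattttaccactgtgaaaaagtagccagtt

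The match lies on the other strand of the Xcr1 promoter, with its first base at -127, and on the gene's strand of Clec9a at -64. Over windows from 250 bases before to 50 after the start, 4 of 26 promoters of cDC1 genes (15.4%; Clec9a, Gcsam, Gpr33 and Xcr1) held the letters on either strand, against 4.56% of all 32851 promoters. The share was similar in the list of innate sensors (4 of 27 promoters, 14.8%). Among promoters of all genes called at least 2-fold higher the share was 3.96%, among those lower 2.90% and among tested genes that were neither 3.04%. A match is a description of the letters, not a bound site. The pattern holds only the letters TGA of an AP-1 site, and a full AP-1 site was not searched for. In the 100 bases before the start, 2 of the 26 (7.69%) held it.

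Among the surface receptors of cDC1, XCR1, the receptor for the chemokine XCL1, read 3.38 on both CD8+ cDC arrays and was not well above background in pre-cDC, a difference of at least 69.1-fold (adjusted p = 4.18e-08). Clec9a, which binds actin exposed by dead cells, stood at 6.50 and 6.58 in CD8+ cDC and was already at 3.44 and 3.38 in pre-cDC, a difference of 3.13 ± 0.43 (adjusted p = 0.000242). The populations did not overlap for either receptor, as at 87.1% of all genes. In the precursors Clec9a was well above background while Xcr1 was not. Cd207 (langerin) was at least 123-fold higher, Gcsam at least 88.4-fold and Ly75, the uptake receptor DEC-205, at least 5.48-fold. The adhesion molecule Cadm1 rose from -2.30 and -2.34 to 3.79 and 3.76, by 6.09 ± 0.27. Btla, an inhibitory receptor, was higher by 3.03 and Cd24a by 1.49.

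The toll-like receptors of this lineage differed in whether the precursors had a measurable level. Tlr11, which senses profilin of Toxoplasma, was at least 222-fold higher. Tlr3, a sensor of double-stranded RNA, read 1.69 and 1.77 in CD8+ cDC, and neither receptor was well above background in pre-cDC. Tlr12, the partner of TLR11, was already at 3.80 and 3.86 in pre-cDC and reached 6.06 and 6.03 in CD8+ cDC. Genes of cross-presentation and endosomal traffic followed: Wdfy4, required for cross-presentation of cell-associated antigen, moved from 6.00 and 5.85 to 9.40 and 9.37 (3.46 ± 0.06, adjusted p = 3.07e-09), and Naaa, a lysosomal amidase, reached 8.28 and 8.22, higher by 4.35 ± 0.08 (adjusted p = 4.72e-09). Rab7b, a late endosomal GTPase, was higher by 5.21 and the sorting nexin Snx22 by 5.27. Septin3 gave no clear value, because its probes ranged from -0.21 to 6.27.

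**Figure D1:**
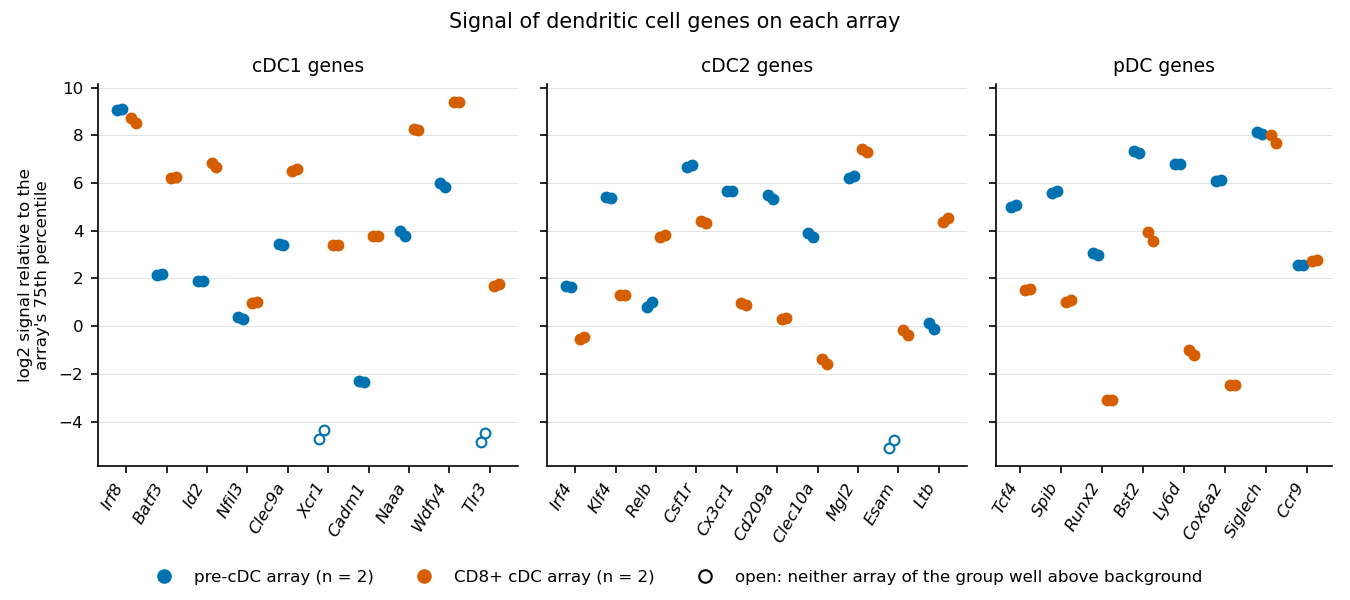
The level of selected genes on each of the 4 arrays (log2 signal relative to the array's 75th percentile, 2 arrays per population), where open symbols mark genes that were well above background on neither array of the population. Xcr1 lies at 3.38 in CD8+ cDC and has open symbols in pre-cDC, Irf8 lies between 8.53 and 9.09 on all 4 arrays, and Klf4 is at 5.42 and 5.37 in pre-cDC and at 1.29 and 1.30 in CD8+ cDC.

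The transcription factors of the cDC1 lineage did not move together. Irf8 read 8.71 and 8.53 in CD8+ cDC and 9.07 and 9.09 in pre-cDC, a decrease of 0.46 ± 0.07 (adjusted p = 0.000416) that was not called with arrays scaled to their median (-0.20, adjusted p = 0.180). Batf3 read 6.19 and 6.23 against 2.13 and 2.18, higher by 4.06 ± 0.15 (adjusted p = 1.02e-07). Id2, which restrains E proteins, read 6.85 and 6.66 against 1.91 and 1.88, higher by 4.86 ± 0.11 (adjusted p = 1.16e-08). The largest gap between replicates of these 3 genes was under 0.2, so the levels of Batf3 and Id2 differed far beyond the spread while Irf8 was high on all 4 arrays. Nfil3, which acts early in cDC1 development, was higher by 0.65 ± 0.08.

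The cDC2 list split. Of 23 genes, 22 were tested, 8 were at least 2-fold higher and 8 at least 2-fold lower, with a median of -0.60, or -0.35 with arrays scaled to their median. Those lower in CD8+ cDC included the lectins Clec10a (-5.29) and Cd209a (-5.08), the fractalkine receptor Cx3cr1 (-4.74) and the factor Klf4 (-4.10). Klf4 stood at 5.42 and 5.37 in pre-cDC and at 1.29 and 1.30 in CD8+ cDC. Csf1r was lower by 2.34 and Cebpb by 3.02. Irf4 read -0.52 and -0.45 against 1.67 and 1.63, a difference of -2.13 ± 1.14 that was not called (adjusted p = 0.124), because the pooled spread of its probe over the 12 arrays was wide. In a fit on the 4 arrays alone it was called (adjusted p = 0.000123). The members higher in CD8+ cDC were Ltb, a lymphotoxin subunit, by 4.45, the NF-kB subunit Relb by 2.89, Tnfrsf11a (RANK) by 2.02, the Notch effector Rbpj by 1.47 and the lectin Mgl2 by 1.11, with Esam, Dtx1 and Clec4a4 at least 5.53-, 3.58- and 1.93-fold higher. The SIRPA gate selected the precursors for a cDC2 surface protein.

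Genes shared by dendritic cells were partly in place in the precursors. All 22 members of the core list were tested, 10 were at least 2-fold higher and none at least 2-fold lower, with a median of 0.91. The signalling adaptor Traf1 was higher by 6.36, the aminopeptidase Anpep (CD13) by 5.93, the lysosomal thioesterase Ppt1 by 5.62 and the protease Adam19 by 4.11. Zbtb46, a factor that marks the cDC lineage, differed by 0.69 ± 0.20 (adjusted p = 0.0137), a call that was lost without the second CD8+ cDC array (adjusted p = 0.0823) or the second pre-cDC array (adjusted p = 0.0756). Bcl11a was lower by 0.90, Spi1 (PU.1) by 0.85 and Ikzf1 by 0.41, the last not called with arrays scaled to their median.

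Most genes of MHC class II presentation were higher. Of 18 genes, all tested, 12 were at least 2-fold higher and 1 at least 2-fold lower, and the median was 2.25. The 12 include 4 class II chains that the gate itself selected. Ciita, the class II transactivator, read 4.39 and 3.93 in CD8+ cDC and had a mean of -1.11 in pre-cDC, higher by 5.27 ± 0.45 (adjusted p = 1.4e-05). Cd74, the invariant chain, read 9.90 and 9.70 against 5.75 and 5.90, higher by 3.97 ± 0.13. Among the genes of peptide exchange, H2-Oa and H2-Ob, the chains of the inhibitor DO, were higher by 3.95 and 4.20, and of the chains of the exchange factor DM, H2-DMb2 was higher by 2.47, H2-DMb1 by 1.82 and H2-DMa by 0.37. The call of H2-DMa was lost without either CD8+ cDC array or without the first pre-cDC array (adjusted p = 0.0770, 0.100 and 0.125). The ubiquitin ligase Marchf1, which turns class II over, was higher by 2.04, although another of its probes gave -0.64. Among the proteases, Ctss was higher by 0.75 and Ctsl lower by 2.84 ± 0.07 (adjusted p = 1.2e-08), and Lgmn was not called (adjusted p = 0.0651). The thiol reductase Ifi30 was lower by 0.69.

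Class I loading and cross-presentation had smaller differences. Of 25 genes, all tested, 9 were at least 2-fold higher and 3 at least 2-fold lower, with a median of 0.76, or 0.49 with quantile normalization. Nlrc5, the class I transactivator, read 4.53 and 4.43 against 1.47 and 1.22, higher by 3.14 ± 0.13 (adjusted p = 1.73e-07). Rab43, a GTPase that contributes to cross-presentation by CD8+ cDC, was higher by 2.80, the transporter subunit Tap2 by 2.09 and the immunoproteasome subunit Psmb9 by 1.76. Smaller differences were measured for Psme2 (1.21), Psmb8 (0.93), Tap1 (0.92) and B2m (0.76). The class I chain H2-K1 was higher by 1.56, but in the authors' table it differed by 0.013 and was not called (adjusted p = 0.860). The members that were lower belong to the phagosomal oxidase and its traffic: Cybb, the oxidase's membrane subunit, by 3.84 ± 0.23 (adjusted p = 1.9e-06), the GTPase Rac2 by 2.45 and Rab27a by 2.31. The letters of the interferon-stimulated response element (GAAA, any 2 bases, then GAAA, on either strand) were in 4 of 27 promoters of this list (14.8%), against 3.44% of all promoters. This element and AICE share the letters GAAA, read on 1 of the strands, so a stretch can count for both.

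**Figure D2:**
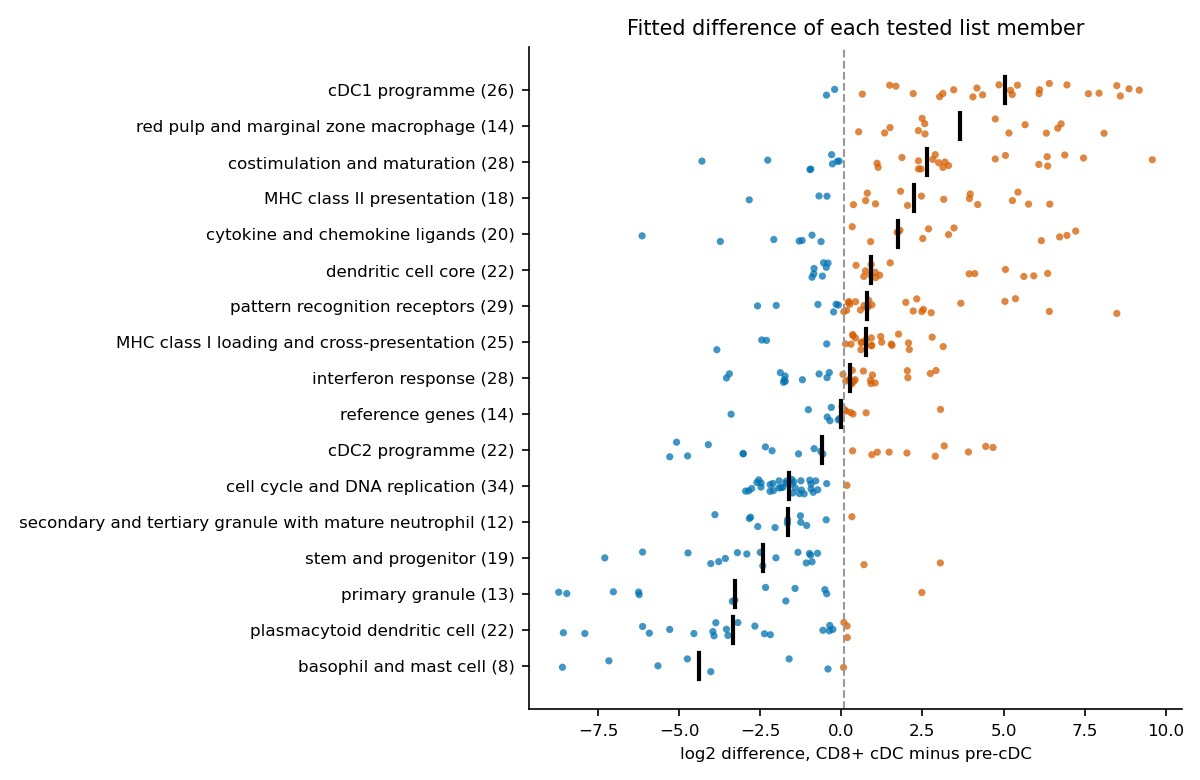
Differences of the members of each gene list (CD8+ cDC minus pre-cDC, log2; 1 point per gene tested; black bars mark each list's median and the dashed line the median of all genes, 0.08). The cDC1 list has the highest median shown in the text, 5.04, MHC class II stands at 2.25, and the cell cycle list lies below 0 apart from Tyms, at a median of -1.61.

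Costimulatory and maturation genes were widely higher. Of 31 listed genes, 28 were tested, 20 were at least 2-fold higher and 2 at least 2-fold lower, and the median was 2.64, or 2.40 with dim genes at their bound. It was 1.62 with normexp correction and 1.5 over genes well above background on all 4 arrays. Cd86, a ligand of CD28, read 5.74 and 5.66 in CD8+ cDC and -1.04 and -1.33 in pre-cDC, higher by 6.89 ± 0.21 (adjusted p = 4.78e-08). Cd83, a maturation marker, was at least 686-fold higher. Cd40 was higher by 3.13, and Cd274 (PD-L1) was at least 11.7-fold higher. Havcr2 (TIM-3), which CD8+ cDC are known to carry, was higher by 7.47. The cytoskeletal bundler Fscn1 was at least 17.4-fold and the signalling inhibitor Socs2 at least 20.8-fold higher. Cd80 had no clear direction, because its probes ranged from -0.30 to 3.02. The lectin Lgals9 read -1.13 and -1.08 against 3.19 on both pre-cDC arrays, and Tnfsf9 (4-1BB ligand) was lower by 2.27.

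Cytokine and chemokine ligands moved in both directions. Of 28 genes, 20 were tested, 11 were at least 2-fold higher and 5 at least 2-fold lower. The median was 1.74, or 0.59 with dim genes at their bound, and it turned to -0.63 without the filter on dim probes and to -0.90 over the genes well above background on all 4 arrays. Ccl5, which attracts T cells, read 6.45 and 6.49 against -0.36 and -1.16, higher by 7.22 ± 0.22 (adjusted p = 3.83e-08). The CXCR3 ligands Cxcl9 and Cxcl10 were at least 118- and 28.5-fold higher, and Il1b at least 94.6-fold. Il18 was higher by 3.47 and Cxcl16, the ligand of CXCR6, by 2.51. The inflammatory CC chemokines of the macrophage inflammatory protein group went the other way: Ccl9 read -1.19 and -1.01 against 5.05 and 5.03 (-6.14 ± 0.07, adjusted p = 7.77e-10), Ccl3 was lower by 3.73 and Ccl6 by 2.08. Il12a, Il10 and Ifnb1 did not pass the filter in either population.

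Of the trafficking genes, 22 of 25 were tested, 6 were at least 2-fold higher and 10 at least 2-fold lower. Their median was 0.14, but -0.72 over genes well above background on all 4 arrays, -0.06 with normexp correction and -0.04 without a filter. Ccr7, which guides dendritic cells to T cell zones, read 5.98 and 6.04 against 0.99 and 0.92, higher by 5.06 ± 0.26 (adjusted p = 7.54e-07). Cxcr3 was higher by 3.46 and the integrin chain Itga4 by 1.84. Cxcr4, known for retention in the marrow, was lower by 1.98, and Ccr2, known for exit from it, by 3.14. The sphingosine phosphate receptors S1pr3 and S1pr4 were lower by 3.60 and 4.73. The homing molecules Itgb7 (by 1.97) and Selplg (by 1.55) also fell, with the groups apart for each, as at 87.1% of all genes. Gpr183, which positions cDC2 in the spleen, was lower by 2.63.

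Innate sensors outside the cDC1 list were mixed. Over the whole list, 29 of 34 genes were tested, 11 were at least 2-fold higher and 2 at least 2-fold lower, with a median of 0.79, or 0.35 over genes well above background on all 4 arrays and 0.51 with normexp correction. Nod2, a sensor of muramyl dipeptide, was at least 9.78-fold and the lectin Clec4n at least 11.8-fold higher. Tlr13, a sensor of bacterial ribosomal RNA, was higher by 3.68 ± 0.07 (adjusted p = 4.45e-09) and Nod1 by 2.77. Tlr7, the sensor of single-stranded RNA, read 0.73 and 0.46 against 3.14 and 3.22, lower by 2.58 ± 0.10, and Sting1 was lower by 2.01. Tlr9 differed by 0.07 ± 0.08 and was not called (adjusted p = 0.426). CD8+ cDC are known to lack TLR7 function, and here the transcript was still above background on both arrays.

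Interferon response genes were likewise divided: of 31, 28 were tested, 5 were at least 2-fold higher and 8 at least 2-fold lower, with a median of 0.28. Oasl1 was higher by 2.92 and Gbp2 by 2.74. Bst2, also a marker of plasmacytoid dendritic cells (pDC), was lower by 3.54, Ifi27l2a by 3.45, Oas2 by 1.88 and Oas1a by 1.79. The letters of the interferon-stimulated response element were in 13 of 23 promoters of this list (56.5%), against 3.44% of all promoters.

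Proliferation genes were lower almost throughout. Of 35 genes, 34 were tested, 33 were called lower and none higher (background 34.5% and 40.4%), and 26 were at least 2-fold lower (background 15.8%). The median was -1.61. The 4 promoters below belong to members lower by more than 2 on the log2 scale and are shown because each carries the letters of both elements known from G2/M genes, the cell cycle homology region (CHR, TTTGAA) and the CCAAT box, in capitals on either strand. They are RefSeq sequences on GRCm38.p6 that end 1 base before the start.
Kif11, chr19:37376262-37376381, plus strand: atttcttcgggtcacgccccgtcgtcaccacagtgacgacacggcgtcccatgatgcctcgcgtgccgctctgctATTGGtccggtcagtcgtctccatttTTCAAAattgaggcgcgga
Cdc20, chr4:118437344-118437463, minus strand: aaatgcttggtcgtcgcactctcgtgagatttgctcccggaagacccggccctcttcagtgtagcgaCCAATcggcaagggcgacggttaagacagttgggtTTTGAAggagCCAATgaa
Top2a, chr11:99024190-99024309, minus strand: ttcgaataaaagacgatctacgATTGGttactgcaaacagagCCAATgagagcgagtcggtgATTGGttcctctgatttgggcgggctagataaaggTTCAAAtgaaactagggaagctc
Ube2c, chr2:164769809-164769928, plus strand: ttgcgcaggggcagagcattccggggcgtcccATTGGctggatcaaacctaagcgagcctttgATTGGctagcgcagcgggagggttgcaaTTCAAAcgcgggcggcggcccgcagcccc

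The CHR letters begin at -19 in Kif11, -18 in Cdc20, -23 in Top2a and -29 in Ube2c. Over the 300-base windows, 12 of 31 promoters of cell cycle genes (38.7%) held CHR and 23 (74.2%) held CCAAT, against 17.9% and 37.4% of all promoters. Neither of the 2 motifs contains the other, though their ends can overlap by 1 base. Among promoters of all genes at least 2-fold lower, 16.6% held CHR, and among those at least 2-fold higher 13.5%.

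The decreases varied in size within the list. Kif11, a spindle motor, read -0.19 and 0.17 in CD8+ cDC and 3.18 and 2.71 in pre-cDC, lower by 2.95 ± 0.17 (adjusted p = 1.16e-06). Ube2c, the ubiquitin enzyme of the anaphase-promoting complex, was lower by 2.86 ± 0.07 and Top2a, a topoisomerase, by 2.76 ± 0.10. The mitotic regulators Mybl2 (-2.60), Ccna2 (-2.54), Plk1 (-2.48) and Foxm1 (-2.47) followed. Mki67, the proliferation marker, fell from 7.14 and 7.02 to 5.07 and 5.23, by 1.93 ± 0.07 (adjusted p = 9.33e-08), and remained well above background in CD8+ cDC. Smaller decreases were those of Birc5 (1.71) and Ccnb2 (1.23), mitotic genes, and of several replication genes: Mcm2 fell by 1.86, Mcm4 by 0.73 and the sliding clamp Pcna by 0.45, whose call was lost with arrays scaled to their median. In these bulk samples, fewer dividing cells and less transcript per cell cannot be told apart.

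Cell cycle inhibitors had no common direction, with 6 of 22 tested genes at least 2-fold higher and 7 lower. Cdkn2b (p15) was at least 4.37-fold higher, whereas Cdkn2d (p19) was lower by 2.92 and Cdkn2c (p18) by 1.84. Cdkn1b (p27) was lower by 0.34, a call that was lost with arrays scaled to their median, and Cdkn1a (p21) differed by -0.08 ± 0.09 with no call (adjusted p = 0.443). The D-type cyclins Ccnd2 and Ccnd3 were lower by 3.23 and 1.51. Btg1 and Btg2, antiproliferative genes, differed by 1.71 and 1.62, but the probes of Btg1 ranged from -1.89 to 1.71. Myc differed by 0.18 ± 0.13 (not called, adjusted p = 0.240), while its relative Mycl, known to act in cDC, was higher by 2.58 and the MYC antagonist Mxd1 by 2.64. The Myc difference was 1.27 in the authors' table and 0.38 without the first pre-cDC array, and was called in both.

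**Figure D3:**
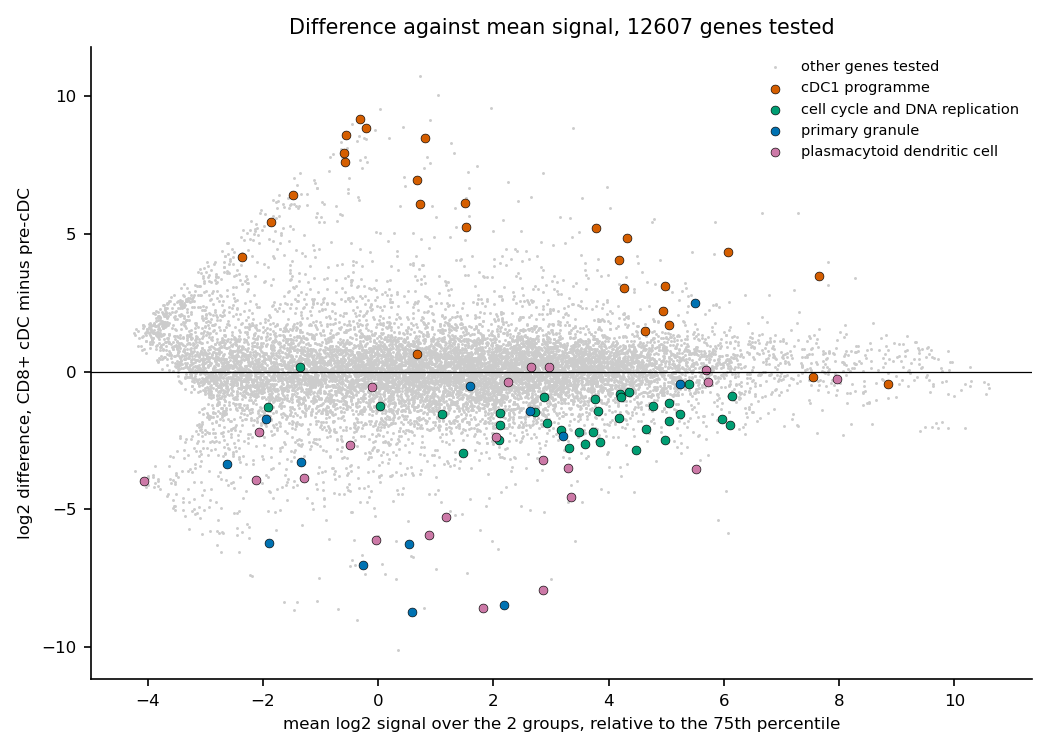
Difference (CD8+ cDC minus pre-cDC, log2) against mean level for every gene tested, with members of the named lists in colour. The cell cycle genes lie below 0 apart from Tyms, and the cDC1 genes above it apart from Irf8 at -0.46 and Septin3 at -0.21.

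Genes of stem and progenitor cells were lower. Of 24 genes, 19 were tested, 13 were at least 2-fold lower and 1 at least 2-fold higher, with a median of -2.42, or -2.22 with dim genes at their bound and -1.13 with normexp correction. Cd93 read -1.95 and -2.24 against 5.22 and 5.17, lower by 7.29 ± 0.09 (adjusted p = 8.1e-10). Cd34 fell by 3.20, Sox4 by 3.57 and Myb by 2.50. The exception was Kit, the receptor of stem cell factor, with a mean of 4.01 in CD8+ cDC and 0.96 in pre-cDC, higher by 3.05 ± 0.06 (adjusted p = 4.45e-09).

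Of the haematopoietic transcription factors, 58 of 60 were tested, 15 were at least 2-fold higher and 21 at least 2-fold lower. Runx2, known for pDC, read -3.10 and -3.11 against 3.08 and 2.96, lower by 6.13 ± 0.09 (adjusted p = 1.72e-09). The E protein Tcf4 (E2-2), which drives pDC, was lower by 3.50, Spib by 4.54 and Zeb2, which opposes Id2, by 4.43. The factors of granulocytes and monocytes Cebpa and Cebpe were lower by 3.35 and 3.28, and Gfi1 at least 7.29-fold. Id2 and Id3 went in opposite directions, since Id3 was lower by 4.45. Among the higher factors, Bcl6 differed by 2.08, Irf1 by 1.80 and Stat3 by 1.25. Irf1 was not called when its probes were averaged.

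Receptors for cytokines and growth factors were near the background, with 6 of 28 tested genes at least 2-fold higher and 4 lower (35.7% either way, against 32.9% of all genes). Ifngr1, a chain of the interferon gamma receptor, read 6.96 and 6.92 against 3.77 and 3.68, higher by 3.21 ± 0.05 (adjusted p = 2.42e-09). Tgfbr2 was higher by 2.08 and the GM-CSF receptor chain Csf2ra by 1.21. The interleukin-3 receptor chain Il3ra was lower by 1.84 and Il7r by 2.27.

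Survival genes changed in composition. Of 25 genes, 21 were tested, 9 were at least 2-fold higher and 2 at least 2-fold lower, with a median of 0.96. Bcl2a1d, of the antiapoptotic A1 family, read 7.76 and 7.86 in CD8+ cDC and -1.03 and -1.07 in pre-cDC, higher by 8.86 ± 0.05 (adjusted p = 2.9e-11). It was the largest difference in this direction among genes well above background on all 4 arrays, and its near-identical family copies may share signal with its probe. Bcl2 went the other way, from 3.75 and 3.59 to 0.65 and 0.50, lower by 3.10 ± 0.13 (adjusted p = 2.43e-07). Mcl1 was higher by 0.59. The death receptor Fas was at least 12.9-fold higher, the proapoptotic Bmf was higher by 3.14 and Bcl2l11 (BIM) at least 2.69-fold, while Casp8 was lower by 1.76.

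Most granule genes were lower in CD8+ cDC. Of 15 primary granule genes, 13 were tested, 10 were at least 2-fold lower and 1 higher, with a median of -3.28, or -2.87 with dim genes at their bound. The median was -1.72 with normexp correction and -1.71 over genes well above background on all 4 arrays. Mpo, the myeloperoxidase of neutrophil granules, read -1.94 and -2.15 against 6.42 in both pre-cDC arrays, lower by 8.46 ± 0.08 (adjusted p = 4.18e-10), and the proteases Ctsg and Prtn3 were at least 383- and 125-fold lower. Elane differed by -2.34. Of 22 genes of secondary granules and mature neutrophils, 12 were tested and 10 were at least 2-fold lower, Ngp by 3.90 and Lcn2 by 2.58. Basophil and mast cell genes included Prss34, a basophil protease (-7.16), and Mcpt8, at least 169-fold lower. Of the 8 tested, 6 were at least 2-fold lower, with a median of -4.38, or -2.55 with dim genes at their bound. Over genes well above background on all 4 arrays, 4 were tested and 2 were at least 2-fold lower, with a median of -1.01. The monocyte and macrophage list was divided, with 8 of 23 tested genes at least 2-fold higher, 10 lower and a median of -0.47: F13a1, a coagulation factor subunit, was at least 591-fold lower and Ly6c1 lower by 5.37, while Cd300e was at least 45.7-fold higher.

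The part of other cell types in these differences was not tested. The summed level of the 4 basophil markers was 3.71 and 3.95 in pre-cDC, while none of the 4 was well above background in CD8+ cDC. The summed monocyte markers stood at 7.61 in both pre-cDC arrays against 4.52 and 4.45, and the neutrophil markers at 5.67 and 5.74 against 4.40 and 4.33.

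Of 25 pDC genes, 22 were tested, none were at least 2-fold higher and 15 were at least 2-fold lower, with a median of -3.34, or -2.93 with dim genes at their bound and -2.06 with normexp correction. Cox6a2, a mitochondrial subunit known from muscle and pDC, read -2.46 and -2.47 against 6.10 and 6.11, lower by 8.57 ± 0.05 (adjusted p = 2.71e-11). Ly6d was lower by 7.91 and Dntt, the terminal transferase of lymphoid cells, by 5.92. Siglech, a defining pDC lectin, read 7.99 and 7.69 against 8.14 and 8.06 on its brightest probe and was not called (adjusted p = 0.0590), while another probe gave -6.30. Without the first CD8+ cDC array the brightest probe was called (-0.41, adjusted p = 0.00959). The summed pDC markers were 8.87 and 8.83 in pre-cDC and 8.03 and 7.74 in CD8+ cDC. In CD8+ cDC nearly all of that sum was the brightest Siglech probe (7.99 and 7.69). The part of pDC in these differences was not tested. The B lineage genes Blnk (-4.17) and Cd79b (-3.18) were also lower, and Ms4a1 (CD20) was at least 33.1-fold higher. The B cell markers Pax5 and Ebf1 were not well above background in either population. Of 15 tested T and NK cell genes, 6 were at least 2-fold higher and 6 lower. Over the 11 well above background on all 4 arrays, 2 were at least 2-fold higher and 6 lower. Without the filter on dim probes, 6 of 24 were at least 2-fold higher and 9 lower. Thy1 was lower by 6.14 and Lck by 3.24, Cd5 was higher by 1.99, and Cd3e differed by 0.47 ± 0.17 (adjusted p = 0.0334), a call that was lost without either CD8+ cDC array or without the first pre-cDC array (adjusted p = 0.118, 0.0867 and 0.208).

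Markers of spleen macrophages and red cells were higher in the spleen sample. Of 18 genes of red pulp and marginal zone macrophages, 14 were tested, 13 were at least 2-fold higher and none lower, with a median of 3.66, or 2.92 with dim genes at their bound and 2.11 with normexp correction. A gene dim in pre-cDC could pass the filter only by being bright in CD8+ cDC. Over genes well above background on all 4 arrays, 4 were tested, 3 were at least 2-fold higher, and the median was 2.47. Without the filter 18 were tested, 14 were at least 2-fold higher and 2 at least 2-fold lower. Vcam1, an adhesion molecule, was at least 70.0-fold higher, Spic, the factor that drives red pulp macrophages, at least 26.2-fold and Cd5l at least 21.4-fold. Hmox1, the haem oxygenase, read 3.71 and 1.08 on the 2 CD8+ cDC arrays, against -0.03 and 0.07 in pre-cDC, so its CD8+ cDC arrays lay far apart. Its difference of 2.38 was 1.06 without the first of them and 3.69 without the second. Summed, the 5 macrophage markers stood at 4.14 and 4.22 in CD8+ cDC, with 4 of the 5 well above background, and at -1.94 and -1.86 in pre-cDC, where none was. Cd163 was not well above background in either population. Apoe (4.08) and Treml4 (3.88), also genes of macrophages, were higher too. The globin genes Hba-a1 and Hbb-bt were higher by 5.56 and 5.45 and Alas2 at least 30.8-fold, whereas the erythroid factor Klf1 was not well above background in either population. The summed erythroid markers were 7.54 and 7.67 against 2.34 and 2.41, and in CD8+ cDC nearly all of the sum was Hba-a1 (7.50 and 7.63). The part of these cells in the differences of other lists, including Il1b, was not tested.

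Among all genes outside the gates, the 12 largest increases well above background on all 4 arrays included, besides Bcl2a1d, Havcr2, Ccl5 and Cd86, those of Cacna1s, a calcium channel subunit (7.24), Adam8, a surface protease (6.69), Slc11a1, a phagosomal metal transporter (6.67), the tetraspanin Cd81 (6.32) and Notch4 (6.32). The 8 largest bounds included, besides Cd83, those of Gpr141b (at least 452-fold) and Dnase1l3, a secreted DNase (at least 442-fold), Fndc7 (291), Serpinb6b (283) and Fam149a (245). In the other direction, among the 12 largest, stood Upb1 (-7.52), Atp1b1, a sodium pump subunit (-7.51), Adgrg3 (-6.98), the factor Nfe2 (-6.67), Emilin2 (-6.44) and the fucosyltransferase Fut7 (-6.15). Epha2, a receptor kinase, was at least 244-fold lower, Syt10 at least 163-fold and Ptprf at least 144-fold.

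Set beside the wild-type progenitor arrays, the levels fell into several patterns, which are given as means of 2 arrays with no test. Each of these populations lay on a different slide, so slide and population cannot be told apart here either. The raw 75th percentile was 487 and 516 on the GMP arrays and 78 and 77 on the CDP arrays. The reference gene Actb stood at 8.95 in GMP, 10.87 in CDP, 10.80 in pre-cDC and 10.37 in CD8+ cDC. Irf8 stood at 4.83 in GMP, 8.97 in CDP, 9.08 in pre-cDC and 8.62 in CD8+ cDC, so CDP already had a level close to that of the later populations. Batf3 was not well above background in GMP and stood at -1.15, 2.16 and 6.21 in the 3 other populations. Id2 read -0.94, 1.41, 1.89 and 6.75, with its widest step between pre-cDC and CD8+ cDC. Clec9a was already at 3.15 in CDP and at 3.41 in pre-cDC.

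Ciita stood at -2.33 in CDP, -1.11 in pre-cDC and 4.16 in CD8+ cDC, while Cd74 stood at 0.78, 5.83 and 9.80. Cd86 stood at -1.73, -1.18 and 5.70. Klf4 and Spib were highest in pre-cDC among these populations, at 5.40 and 5.61, with 4.96 and 1.16 in CDP. Mpo was 9.49 in GMP, 9.87 in CDP and 6.42 in pre-cDC, and Ctsg 9.19, 8.45 and 4.95, so both were lower in pre-cDC than in CDP. Prss34 did not follow them, at 4.98, 1.53 and 4.59. Kit stood at 5.25 in GMP, 2.23 in CDP, 0.96 in pre-cDC and 4.01 in CD8+ cDC, lowest in pre-cDC. Mki67 read 5.94, 7.50, 7.08 and 5.15 in the same order.

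**Figure D4:**
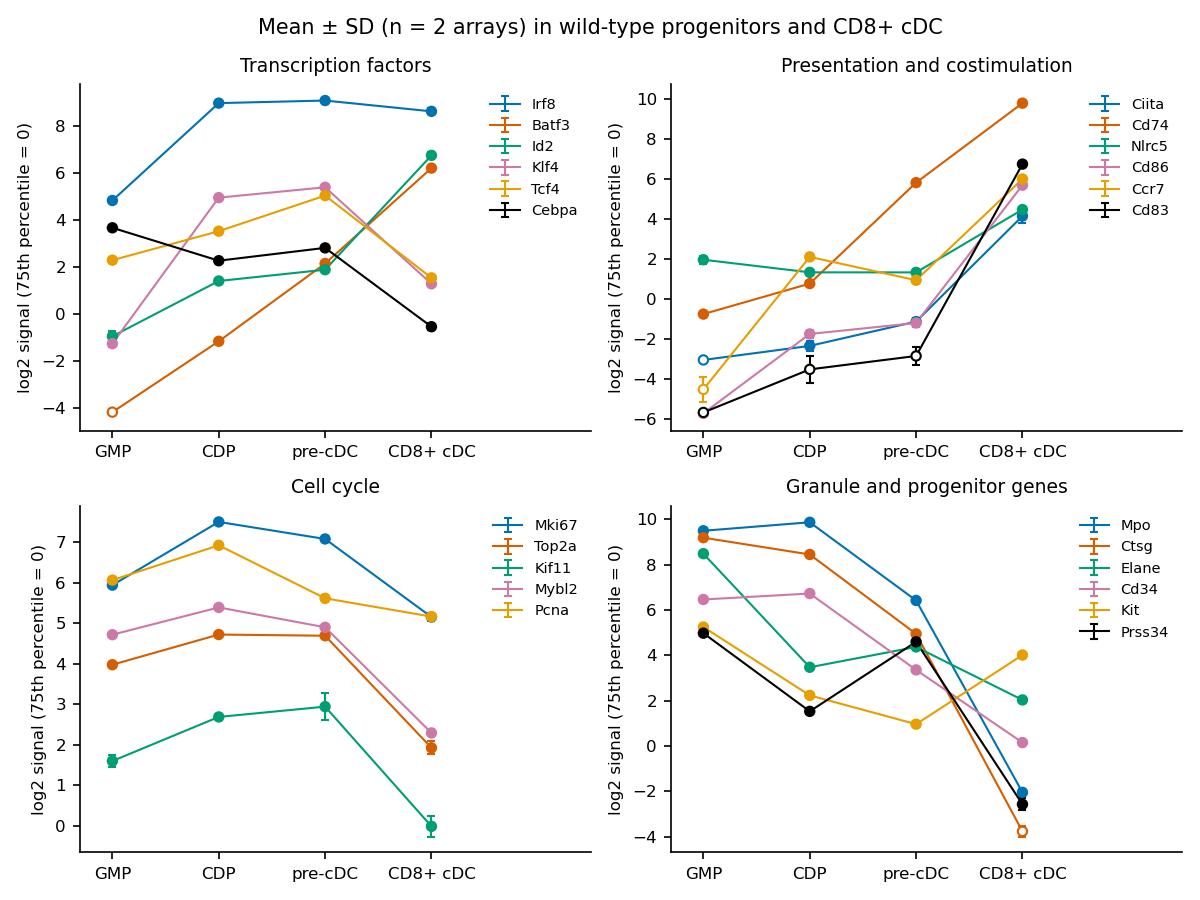
Mean levels (log2 signal relative to the array's 75th percentile, 2 arrays per group, bars show the SD) of selected genes in wild-type GMP, CDP, pre-cDC and CD8+ cDC, with open symbols for groups where neither array was well above background. Irf8 reaches 8.97 in CDP, Batf3 climbs to 6.21 in CD8+ cDC, and Mpo drops from 9.87 in CDP to 6.42 in pre-cDC and -2.04 in CD8+ cDC. Each population lay on a different slide.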

How the data were processed

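The deposited Agilent scanner files give a processed intensity per spot (Feature Extraction 10.7.3.1, genome annotation mm9, per the file headers). The authors' deposited value table was an alternative. The median and background intensity columns, also deposited by the authors, served for normexp, because the mean signal column that had been planned was absent. Control spots and outlier-flagged spots were left out, spots of a probe averaged, log2 taken and the array's 75th percentile subtracted. A gene was its brightest probe, tested where well above background on both arrays of either group. Of 55681 probes, 26762 had 1 symbol (20284 genes) and 28919 none, and bright probes of 945 of 3178 genes with several differed in sign. limma 3.58.1 (R 4.3.3) was fitted to the 12 arrays of the larger design. The 2 CD4+ cDC arrays, on a smaller design, were not used. No spot was saturated, and 1 tested gene lacked a value on 1 array. A permutation test of 2 against 2 arrays cannot go below p = 0.333. The number of arrays limits the precision. The fit was first checked on simulated data.

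Genes were named by a rule: per list, the 3 largest called differences each way among genes well above background on all 4 arrays, over all genes the 12 largest each way and the 8 largest bounds each way, the markers and the gate genes. Further list members were chosen after their values were seen. The comparison, 32 lists (724 of 726 listed genes matched) and motifs were chosen with earlier results of these data known. Promoters are RefSeq's on GRCm38.p6, matched for 10125 of the tested genes, and no other coordinates were used. Some list members are not reported here.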

Additional observations from a re-analysis of the deposited data

How the results depend on the processing

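Across normalization, background, probe and fit, the calls numbered 8778 (array median) to 9759 (normexp) against 9443, with 8953 in a fit on the 4 arrays alone. Calls of at least 2-fold numbered 2903 (normexp) to 4535 (array median) against 4146. Of 10560 genes well above background on all 4 arrays, 8267 were called and 3037 were called at least 2-fold different. With 1 array left out, the median difference over all genes was 0.06 to 0.09. Without the filter on dim probes 8455 genes were lower and 8129 at least 2-fold different, with more genes tested. Replicate numbers did not pair the arrays (correlations of deviations between groups from -0.077 to 0.041), and the replicate block gave 9346 calls. A slide block was not run, since each population lay on 1 slide. Direction reversed for Actb (0.23 quantile, 0.21 authors' table), Csf3r (-0.10, -0.11) and H2-D1 (-0.036, -0.040) in the same settings, Btg1 (-0.087), Cd80 (1.36) and Septin3 (3.03) with probes averaged, and Septin3 with the array median (0.049). For probes averaged, the gene's probes disagree; the other causes were not tested. Hmox1 was not called in the fit on 4 arrays (adjusted p = 0.0756) or without the first pre-cDC array (adjusted p = 0.0567). Dim probes give bounds only.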

Other observations

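Other gene groups were divided. Lysosomal and endocytic genes, 26 of 27 tested, were at least 2-fold higher in 5 cases and lower in 6, with a median of -0.45. That is 42.3% either way, against 32.9% of all genes. The tetraspanin Cd63 was higher by 3.02, the acid lipase Lipa by 2.77 and Rab32, of lysosome-related organelles, by 2.30, whereas the protease Ctsd read 1.99 and 1.97 in CD8+ cDC against 4.74 and 4.65 in pre-cDC, lower by 2.72 ± 0.06 (adjusted p = 6.82e-09). Of 25 tested genes of sterol and lipid handling, Abcg1, a cholesterol exporter, was higher by 1.89 and Cd36, a fatty acid receptor, at least 62.4-fold, while the synthesis enzyme Dhcr7 was lower by 2.32.

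Of 30 genes of glycolysis and the respiratory chain, 2 were at least 2-fold higher and 4 lower (20% either way, against 32.9% of all genes). Ldha was higher by 1.11 and the hexokinase Hk3 by 2.22, and Pkm, Gapdh and the lactate exporter Slc16a3 were lower by 1.12, 1.02 and 2.83. Immediate early genes were not uniform: Egr1 differed by 3.87 ± 0.82 (adjusted p = 0.00284) and Egr2 was at least 24.5-fold higher, while Jun and Ier2 were lower by 1.66 and 2.22. Of 14 tested reference genes, Gusb was at least 2-fold higher, with 6.81 and 6.93 against 3.85 and 3.78 (3.06 ± 0.06, adjusted p = 5.16e-09), and Tfrc (-3.40) and Gapdh at least 2-fold lower. The polymerase I subunit Polr1a was higher by 2.59. Of 26 tested genes of ribosome biogenesis and MYC targets, 4 were at least 2-fold higher and 1 lower (19.2% either way, against 32.9% of all genes).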
